A study of Mus musculus with 8 samples.

Results

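The genes described here are 9 chaperones, folding enzymes and helpers of the endoplasmic reticulum (ER), *Hspa5*, *Hsp90b1*, *Pdia4*, *Pdia6*, *Calr*, *Dnajb9*, *Dnajc3*, *Sdf2l1* and *Herpud1*, and the transcription factor gene *Xbp1*. They were taken by symbol from a fixed list, and these 10 genes stood among 30406 gene IDs that were listed in all libraries. Their direction was set against that of *Ddit3*, which encodes CHOP. Islets came from male C57BL/6 mice (C57BL6/J in the study's methods), 12 to 16 weeks old, and each of the 2 experimental replicates was a pool of islets from 10 mice that was divided over 4 conditions. For 18 h, intact islets received no addition (untreated), IL-1β at 10 U/mL together with IFN-γ at 150 U/mL (cytokines), both cytokines with 2 mM NMMA, or 2 mM NMMA alone. NMMA, NG-monomethyl-L-arginine, inhibits nitric oxide synthases, so cytokines against cytokines plus NMMA compares the response with and without that inhibition. An action of NMMA apart from cytokine-made nitric oxide would enter that comparison too. The islets were then dispersed, and single-cell RNA was counted as unique molecular identifiers (UMIs), each standing for 1 captured mRNA molecule.

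Secretory cells fold proinsulin, proglucagon and other hormones in the ER. *Hspa5* encodes BiP, the ER member of the Hsp70 family, which binds unfolded chains and also the luminal side of the 3 stress sensors PERK, IRE1 and ATF6. When unfolded chains accumulate, ATF6 and the spliced product of *Xbp1*, which IRE1 creates, raise chaperone and degradation genes, while PERK slows translation and favours ATF4, which in turn raises *Ddit3*. CHOP, the *Ddit3* product, is a transcription factor associated with cell death under prolonged ER stress. Cytokine-exposed rodent β-cells make nitric oxide through inducible nitric oxide synthase, and β-cells are known for a high load of hormone folding.

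The element through which ATF6 and the CCAAT-binding factor NF-Y act, the ER stress response element (ERSE), is shown here because it divides these genes by sequence alone, without use of any measured value. Windows of 250 bases before to 50 bases after each RefSeq start site (build GRCm38.p6) were searched on both strands for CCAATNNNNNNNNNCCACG (ERSE), ATTGGNCCACG (ERSE-II), TGACGTGG (the unfolded protein response element, UPRE) and TGATGNAA (the C/EBP-ATF composite site). ERSE stood in the windows of 5 of the 10 genes and in 39 of all 32851 windows (0.119%). Capitals mark the match, each line reads 5′ to 3′ on the strand of the gene, and a match that starts with CGTGG lies on the opposite strand.
Hspa5: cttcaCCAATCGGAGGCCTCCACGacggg
Pdia6: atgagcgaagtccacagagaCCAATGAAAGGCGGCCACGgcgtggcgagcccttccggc
Dnajc3: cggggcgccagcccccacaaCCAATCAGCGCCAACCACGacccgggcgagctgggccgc
Hsp90b1, distal: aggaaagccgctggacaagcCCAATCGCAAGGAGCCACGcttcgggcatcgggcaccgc
Hsp90b1, proximal: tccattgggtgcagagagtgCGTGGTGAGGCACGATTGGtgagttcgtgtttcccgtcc
Calr: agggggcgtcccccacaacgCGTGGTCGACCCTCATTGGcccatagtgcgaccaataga
These stretches lie at chr2:34772020-34772048 (plus strand), chr12:17266471-17266529 (plus), chr14:118937807-118937865 (plus), chr10:86705618-86705676 and chr10:86705513-86705571 (minus), and chr8:84847055-84847113 (minus). The matches began between 65 bases (*Hspa5*) and 212 bases (*Hsp90b1*, distal) before the start site. The *Hspa5* match lies upstream of the RefSeq start and within the longer gene model of the annotation used for the counts' build, which begins at base 34771970 of chromosome 2.

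*Herpud1* held the variant ERSE-II, found in 12 of all windows (0.0365%), and also the only C/EBP-ATF match among these genes, a motif found in 1304 of all windows (3.97%).
Herpud1, ERSE-II: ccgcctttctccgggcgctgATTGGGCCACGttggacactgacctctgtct
*Herpud1*, C/EBP-ATF: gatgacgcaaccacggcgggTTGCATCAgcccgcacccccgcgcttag
They lie at chr8:94386357-94386407 and chr8:94386297-94386344 on the plus strand, and the C/EBP-ATF match is on the opposite strand. No window of the 10 genes held the UPRE letters, which 222 windows (0.676%) did. *Pdia4*, *Dnajb9*, *Sdf2l1*, *Xbp1* and *Ddit3* held none of the 4 motifs in these windows, which says only that these letters are not there.

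The 8 libraries held 26549922 to 50731370 UMIs. Filters on genes per cell and mitochondrial share kept 10876 of 17426 barcodes (62.4%), of which 6341 cells clustered as β-like (*Ins1* and *Ins2*), 609 as α-like (*Gcg*), 294 as δ-like (*Sst*), 324 as macrophage-like and 282 as endothelial-like, called by those names below. The defining markers were present in each class, with the exception of *Lepr* at 0 in δ-cells and of the δ-cell libraries of cytokine-treated islets described with the δ-cell results, and 34 barcode sequences occurred in more than 1 library. Cells of 1 class lay in different clusters by treatment: 99.5% of β-cells without cytokines fell in clusters 0, 2, 9 and 11 and 87.5% of those with cytokines in clusters 1, 3 and 8, and the shares were 92.5% (subclusters 0, 1 and 12) and 99.3% (subclusters 4, 5, 11, 13 and 15) for α-cells, 100% (subclusters 2 and 10) and 98.3% (subcluster 3) for δ-cells, 98.9% (cluster 14) and 73.8% (cluster 17) for macrophages, and 100% (cluster 15) and 98.8% (cluster 19) for endothelial cells. Changes within a class therefore also compare these clusters. Clusters split by replicate too. Cluster 0 held 1550 untreated and 541 NMMA cells of replicate 1 and 1 and 2 of replicate 2. Cluster 2 held 480 untreated and 450 NMMA cells of replicate 2 and 0 and 0 of replicate 1. UMIs summed per library and class were 11561415 to 35211109 in β-cells, 803884 to 1737213 in α-cells, 231957 to 925034 in δ-cells, 342088 to 720800 in macrophages and 213363 to 688183 in endothelial cells. The δ-cell class held 9 cells in the cytokine library of replicate 1, under the minimum of 10, so δ-cells with cytokines rested on 1 library of 12 cells. Levels are UMI counts per 1000000 (CPM) on libraries scaled by edgeR's TMM factors, changes are log2 changes ± SE from edgeR's quasi-likelihood test over 2 libraries per condition, and p-values were adjusted over all genes tested in a class (threshold 0.05). A pair of values always gives replicate 1 first and replicate 2 second. The 4 conditions of a replicate shared 1 pool of islets, and where a fit with the replicate as a block gave another call it is given as the blocked value.

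Untreated β-cells carried the highest share of transcripts from most of these genes. Because insulin takes a large part of β-cell UMIs, the share was computed over UMIs other than the islet hormones. The hormones taken out were *Ins1*, *Ins2*, *Gcg*, *Sst* and *Ppy*. *Iapp* and *Pyy* stayed in. *Iapp* stood at 54659.5 and 40256 per 1000000 UMIs in untreated β-cells and 30659 and 22683.5 in untreated δ-cells. *Pyy* stood at 652 and 1233.5 in untreated β-cells and 63107 and 84711 in untreated δ-cells. On that scale both untreated β-cell libraries lay above both untreated libraries of all 4 other classes for 8 of the 10 genes. *Hspa5* stood at 1575 and 1877 UMIs per 1000000 in β-cells, 755 and 916 in α-cells, 979 and 1045 in δ-cells, 354 and 463 in macrophages and 429 and 721 in endothelial cells. The exceptions were *Hsp90b1*, which encodes GRP94, the ER form of Hsp90, with overlapping libraries in β-cells (1315 and 1429), α-cells (1206 and 1397) and δ-cells (1338 and 1419), and *Herpud1*, with 282 and 290.1 in β-cells and 263 and 347 in δ-cells. The widest gaps were those of *Herpud1* in macrophages, at 0.0829 times the β-cell mean, and *Sdf2l1* in endothelial cells, at 0.0976 times. The former rests on few *Herpud1* UMIs, given with the macrophage results, so its size is uncertain. *Sdf2l1* encodes an ER protein that binds BiP co-chaperones, and it stood at 0.208, 0.28 and 0.281 times the β-cell mean in α-cells, δ-cells and macrophages. With all UMIs counted, hormones included, the number of genes for which β-cells lay above all other classes fell to 3, and δ-cells then exceeded the β-cell mean for *Hsp90b1* (1.46 times), *Pdia4* (1.001 times), *Herpud1* (1.55 times) and *Xbp1* (1.14 times), and α-cells for *Hsp90b1* (1.27 times). These orders are descriptions over 2 libraries a class and were not tested.

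In β-cells, cytokines raised few of these genes, by at most 1.56-fold (*Hspa5*), and all 10 stood higher when NMMA was added to the cytokines. After cytokines alone, 3 of 10 genes rose (*Hspa5*, *Calr* and *Herpud1*) where 23.8% of the 12773 genes tested rose, and none fell where 22.4% fell. With the replicate as a block, 5 rose and 2 fell, against 32.2% and 30.6% of all genes. After cytokines plus NMMA, 4 rose (*Hspa5*, *Hsp90b1*, *Calr* and *Herpud1*) and none fell, against 12.9% and 9.7% of all genes, and 9 rose (all but *Dnajc3*) and none fell with the block, against 22.1% and 18.6%. The median change of the 10 genes was 0.20 after cytokines and 0.50 after cytokines plus NMMA, while the medians over all genes were 0.0015 and -0.0021. All 10 were lower with cytokines than with cytokines plus NMMA, 9 of them in both replicates, with a median of -0.41 against -0.013 for all genes. Of these differences 1 passed the test (*Pdia4*, lower) and none was higher, where 10.4% of all genes were lower and 9.01% higher. With the block 6 passed, all lower (*Hsp90b1*, *Pdia4*, *Pdia6*, *Dnajc3*, *Sdf2l1* and *Herpud1*), against 20.3% of all genes lower and 20.3% higher. A share of 3 in 10 after cytokines alone is near that of all genes. Scaling by total UMIs instead of TMM moved the median of all genes by -0.22 in cytokines against untreated, and 2 genes were then called higher and 2 lower, with a median of -0.019 over the 10. *Hsp90b1* and *Sdf2l1*, which were not called, then changed sign (-0.077 and -0.18). Over UMIs other than the islet hormones, *Dnajb9* (mean 380 untreated, 360 with cytokines) and *Xbp1* (323 and 307) also stood lower with cytokines. On that scale only *Hspa5* (1726 and 2133), *Calr* (1919 and 2342) and *Herpud1* (286 and 351) had higher means with cytokines. It was not used for tests, so the direction of small changes depends on the scale.

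**Figure D1:**
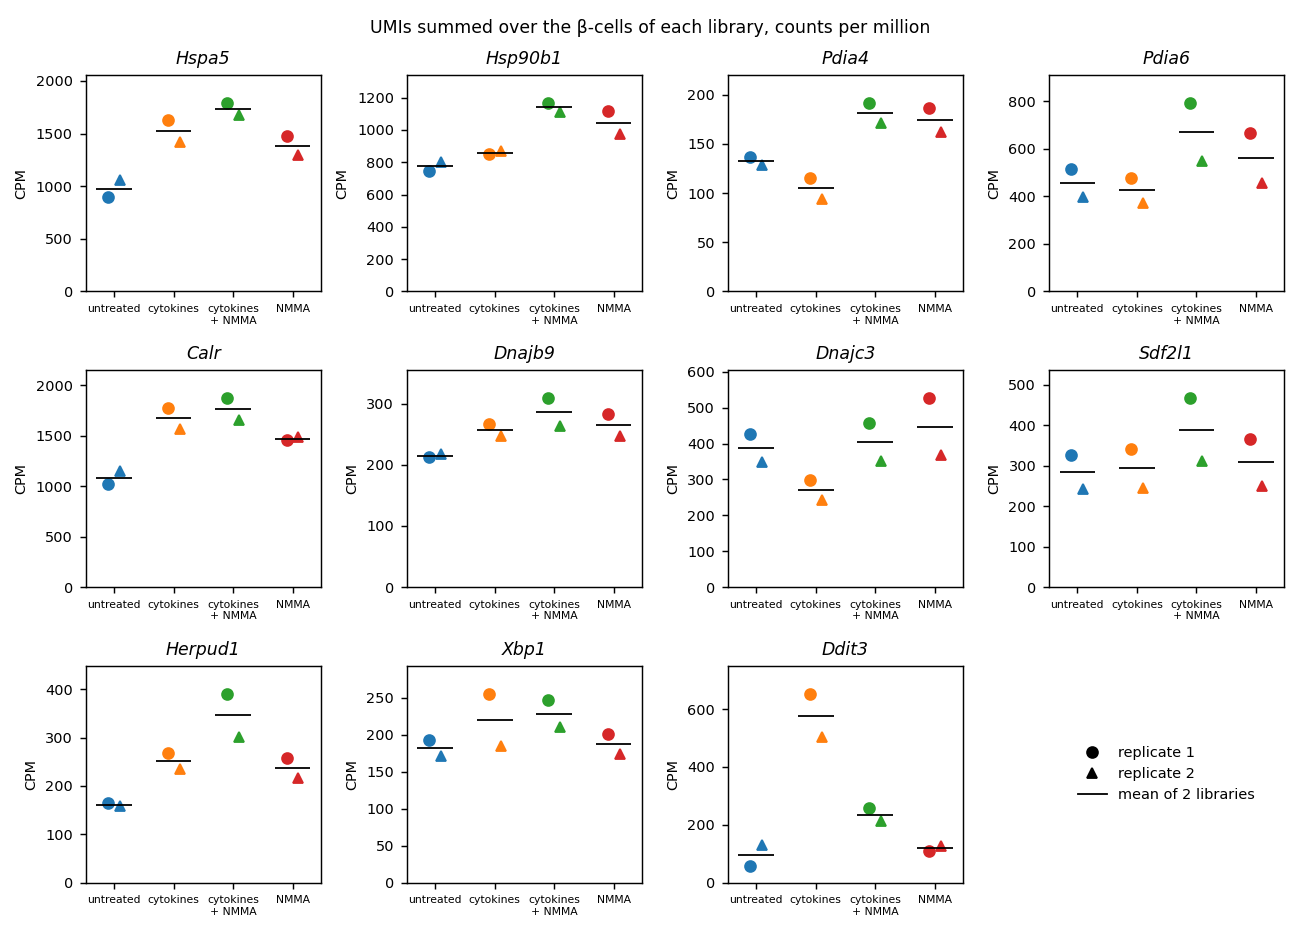
Level of each gene in β-cells, in CPM (vertical axes start at 0), by condition. Circles are replicate 1, triangles replicate 2 and horizontal lines the mean of 2 libraries. For most chaperone genes the highest level lies in the cytokines plus NMMA libraries, while *Ddit3* was highest with cytokines alone.

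The gene for BiP was among the 3 that rose. *Hspa5* had 894 and 1054 CPM in the untreated libraries, 1628 and 1421 CPM with cytokines, 1792 and 1679.8 CPM with cytokines plus NMMA and 1475 and 1293 CPM with NMMA alone. All treated libraries lay above both untreated ones. The change was 0.65 ± 0.15, adjusted p = 0.0068, after cytokines and 0.83 ± 0.15, adjusted p = 0.0037, after cytokines plus NMMA. Its level with cytokines was below that with cytokines plus NMMA in both replicates, and that difference, -0.19 ± 0.15, adjusted p = 0.4, did not pass the test. *Hsp90b1*, for GRP94, had 746 and 803 CPM in the untreated libraries, 849 and 866 CPM with cytokines, 1167 and 1112 CPM with cytokines plus NMMA and 1116 and 971 CPM with NMMA alone. It did not pass the test after cytokines (0.15 ± 0.13, adjusted p = 0.39) and rose by 0.56 ± 0.13, adjusted p = 0.015, after cytokines plus NMMA. With the block it was lower with cytokines than with cytokines plus NMMA (-0.41, blocked adjusted p = 0.0013).

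The BiP co-chaperones had unlike profiles. *Dnajb9* encodes ERdj4, a J-domain protein that recruits BiP to IRE1 and to misfolded proteins, and had 212 and 217 CPM in the untreated libraries, 267 and 247 CPM with cytokines, 309 and 264 CPM with cytokines plus NMMA and 283 and 247 CPM with NMMA alone. Its change after cytokines was 0.26 ± 0.14, adjusted p = 0.16, and 0.26 with a blocked adjusted p of 0.02. *Dnajc3* encodes p58IPK, a J-domain protein that also restrains PERK, and had 428 and 349.8 CPM in the untreated libraries, 298 and 243 CPM with cytokines, 456 and 351 CPM with cytokines plus NMMA and 526 and 367 CPM with NMMA alone. The cytokine libraries were the lowest of their replicate, and the levels with cytokines plus NMMA were close to the untreated ones. The change after cytokines was -0.52 ± 0.22, adjusted p = 0.074, which passed only with the block (-0.52, blocked adjusted p = 6.2e-05). Against cytokines plus NMMA it was -0.58 ± 0.22, adjusted p = 0.091, and again passed with the block (blocked adjusted p = 7.6e-05). *Sdf2l1* had 327 and 242 CPM in the untreated libraries, 342 and 245 CPM with cytokines, 466 and 312 CPM with cytokines plus NMMA and 367 and 250.1 CPM with NMMA alone. Its cytokine and untreated libraries overlapped, with a change of 0.044 ± 0.28, adjusted p = 0.91, whereas the change after cytokines plus NMMA was 0.45 ± 0.28, adjusted p = 0.29, and passed with the block (blocked adjusted p = 0.0005).

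Calreticulin, the *Calr* product, is a calcium-binding lectin that holds glycoproteins during folding. *Calr* had 1019 and 1147 CPM in the untreated libraries, 1777 and 1570.2 CPM with cytokines, 1870.2 and 1657 CPM with cytokines plus NMMA and 1458 and 1486 CPM with NMMA alone. It rose after cytokines (0.63 ± 0.14, adjusted p = 0.0057) and after cytokines plus NMMA (0.70 ± 0.14, adjusted p = 0.0063), and the difference between those conditions was the smallest of the set after that of *Xbp1*, at -0.075 ± 0.14, adjusted p = 0.74. *Pdia4* and *Pdia6* encode protein disulfide isomerases that form and rearrange disulfide bonds. *Pdia4* had 137 and 128 CPM in the untreated libraries, 115 and 94.0 CPM with cytokines, 192 and 171 CPM with cytokines plus NMMA and 186 and 162 CPM with NMMA alone. With cytokines alone both libraries were lowest of their replicate, and with NMMA present both lay above untreated. *Pdia4* was the single gene that passed the unblocked test of cytokines against cytokines plus NMMA, at -0.79 ± 0.15, adjusted p = 0.0098 (0.577 times the level with NMMA). Its changes from untreated were -0.34 ± 0.15, adjusted p = 0.093, after cytokines and 0.45 ± 0.15, adjusted p = 0.06, after cytokines plus NMMA, both of which passed only with the block (blocked adjusted p = 0.0031 and 0.00063). *Pdia6* had 515 and 398 CPM in the untreated libraries, 476 and 374 CPM with cytokines, 794 and 548 CPM with cytokines plus NMMA and 669 and 458 CPM with NMMA alone. In cytokines against cytokines plus NMMA it differed by -0.66 ± 0.25, adjusted p = 0.097, and passed with the block (blocked adjusted p = 2.2e-05), and the change from untreated was -0.10 ± 0.25, adjusted p = 0.77.

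*Herpud1*, which encodes a membrane protein that assembles the machinery for ER-associated degradation, showed the largest change of the 10 genes in β-cells. *Herpud1* had 165 and 158 CPM in the untreated libraries, 267 and 234 CPM with cytokines, 390.3 and 301 CPM with cytokines plus NMMA and 257 and 215 CPM with NMMA alone. It rose by 0.64 ± 0.17, adjusted p = 0.013, after cytokines and by 1.10 ± 0.17, adjusted p = 0.0017, after cytokines plus NMMA (2.14-fold). In both replicates the order from lowest to highest was untreated, NMMA, cytokines and cytokines plus NMMA. *Xbp1* had 193 and 171 CPM in the untreated libraries, 255 and 185 CPM with cytokines, 246 and 210.3 CPM with cytokines plus NMMA and 201 and 174 CPM with NMMA alone. Its counts sum unspliced and spliced mRNA, which a 3′ tag does not separate. The change was 0.27 ± 0.18, adjusted p = 0.25, after cytokines and 0.32 ± 0.18, adjusted p = 0.24, after cytokines plus NMMA, called only with the block (blocked adjusted p = 0.023 and 0.011), and the 2 cytokine conditions differed by -0.054 ± 0.18, adjusted p = 0.87.

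NMMA without cytokines left all 10 genes above untreated in both replicates, yet none passed the unblocked test, in which 0% of the 12773 genes were called. The changes lay between 0.037 and 0.55 with a median of 0.35, against 0.0012 for all genes. An unadjusted p under 0.05 was found in 5 of the 10 and in 932 of the 12773 genes, while DESeq2 called 0 of the 10. With the replicate as a block, edgeR called 5 higher (*Hspa5*, *Hsp90b1*, *Pdia4*, *Calr* and *Herpud1*), against 1.5% of all genes higher. In those 5 the blocked changes were 0.50, 0.43, 0.39, 0.44 and 0.54. The median of 0.35 was near in size to the -0.41 of cytokines against cytokines plus NMMA. For these genes in β-cells, that comparison cannot tell loss of cytokine-made nitric oxide from an action of NMMA itself. Comparisons with untreated share the untreated libraries, so a low value there moves all 3 of them in the same direction. Leaving out the untreated library of replicate 1 gave 0 calls in cytokines against untreated and 1 in cytokines plus NMMA against untreated. Without the cytokine library of replicate 1 there was 1 call in cytokines against untreated, and without the cytokines plus NMMA library of replicate 1 there were 2 in cytokines plus NMMA against untreated and 0 in cytokines against cytokines plus NMMA.

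**Figure D2:**
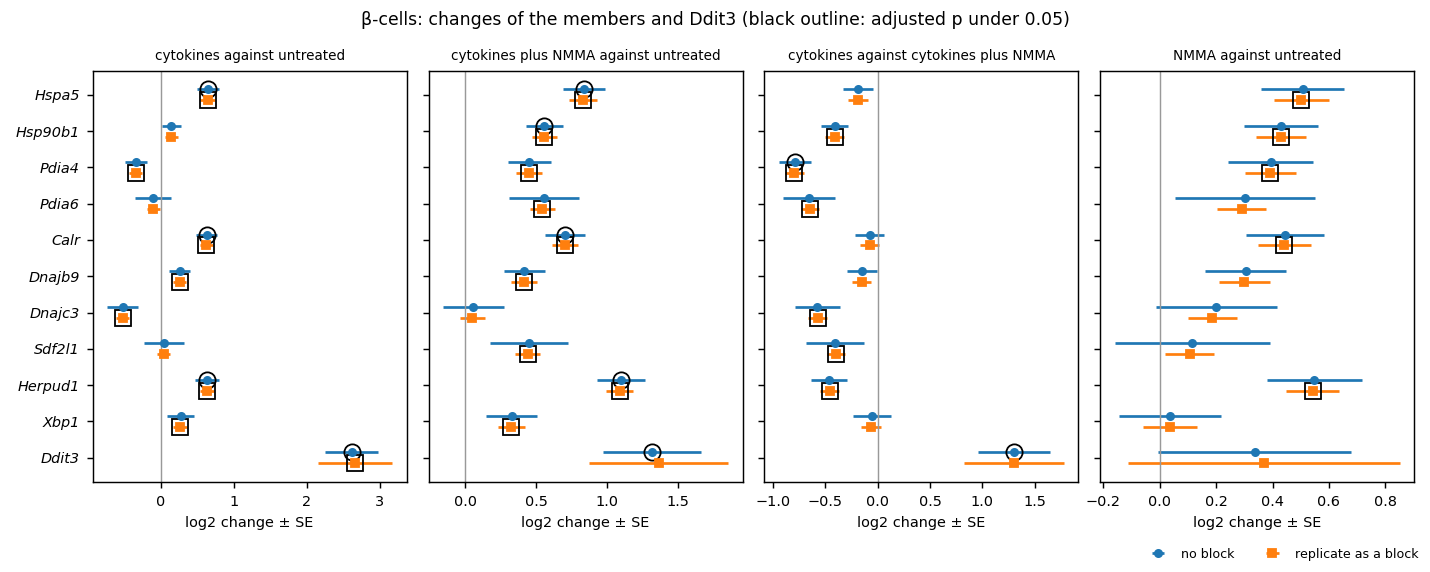
Log2 change ± SE of each gene in β-cells in the 4 comparisons, without (circles) and with (squares) the replicate as a block; black outlines mark an adjusted p under 0.05. The 10 genes lie between -0.52 and 0.65 after cytokines, all above 0 after cytokines plus NMMA and after NMMA, and all below 0 in cytokines against cytokines plus NMMA, where *Ddit3* lies above 0.

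*Ddit3* stood higher with cytokines alone than with cytokines plus NMMA, the opposite order to that of the 10 genes. It had 58.4 and 130.2 CPM in the untreated libraries, 653 and 503 CPM with cytokines, 258 and 211 CPM with cytokines plus NMMA and 110.3 and 128 CPM with NMMA alone. The cytokine libraries were far above all others, and those with cytokines plus NMMA lay between them and the remaining libraries. *Ddit3* rose by 2.62 ± 0.36, adjusted p = 0.001, after cytokines (6.14-fold), with 3.48 in replicate 1 and 1.95 in replicate 2, and by 1.32 ± 0.35, adjusted p = 0.032, after cytokines plus NMMA. It was higher with cytokines than with cytokines plus NMMA by 1.30 ± 0.35, adjusted p = 0.038. The last 2 calls were lost with the block (blocked adjusted p = 0.12 and 0.13), and the latter also with total UMI scaling (adjusted p = 0.083), without either library of cytokines, of cytokines plus NMMA or of NMMA (adjusted p from 0.061 to 0.19). The untreated β-cell libraries themselves differed, at 58.4 and 130.2 CPM.

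Counted within each library, the balance of chaperone to *Ddit3* transcripts shifted. Untreated β-cells carried 15.3 and 8.10 *Hspa5* UMIs for each *Ddit3* UMI, cytokine-treated ones 2.49 and 2.82, those with cytokines plus NMMA 6.96 and 7.94, and those with NMMA alone 13.4 and 10.1. This ratio does not depend on how libraries are scaled. Over the 10 genes, the median log2 change of the ratio from untreated to cytokines was -2.52 (SD 0.978 between 2 replicates). It was -3.22 in replicate 1 and -1.84 in replicate 2. Most of this shift is the rise of *Ddit3* itself (2.62), as the median change over all genes was 0.0015. Any gene without a change would show a ratio shift of like size. Across the 8 β-cell libraries, the log2 CPM of *Calr* and *Ddit3* had a Pearson r of 0.77 and that of *Dnajc3* and *Ddit3* an r of -0.69, the 2 ends of the range. These correlations describe 8 libraries from 2 pools that share their conditions and carry no test.

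The chaperone transcripts were also counted cell by cell, on β-cells thinned to 10000 UMIs each. The median cell held 44 and 47 UMIs of the 10 genes together when untreated, 54 and 47 with cytokines, 73 and 66 with cytokines plus NMMA, and 60 and 58 with NMMA alone. The 10th to 90th percentiles were 27 to 73 and 24 to 80 in untreated cells and 45 to 117 and 30 to 112 with cytokines plus NMMA, so both ends lay higher in the latter. With cytokines they were 30 to 92 and 26 to 82. Cells under 10000 UMIs were left out, which kept 1582 of 1664 and 510 of 605 untreated, 1104 of 1134 and 475 of 571 cytokine, 623 of 644 and 357 of 445 cytokines plus NMMA, and 656 of 667 and 540 of 611 NMMA cells. Without thinning, the means per 10000 UMIs were 47.3 and 49.6, 55.9 and 48.9, 78.5 and 69.1, and 64.3 and 61.4 in the same order. These are descriptions, since cells of 1 library are not replicates.

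**Figure D3:**
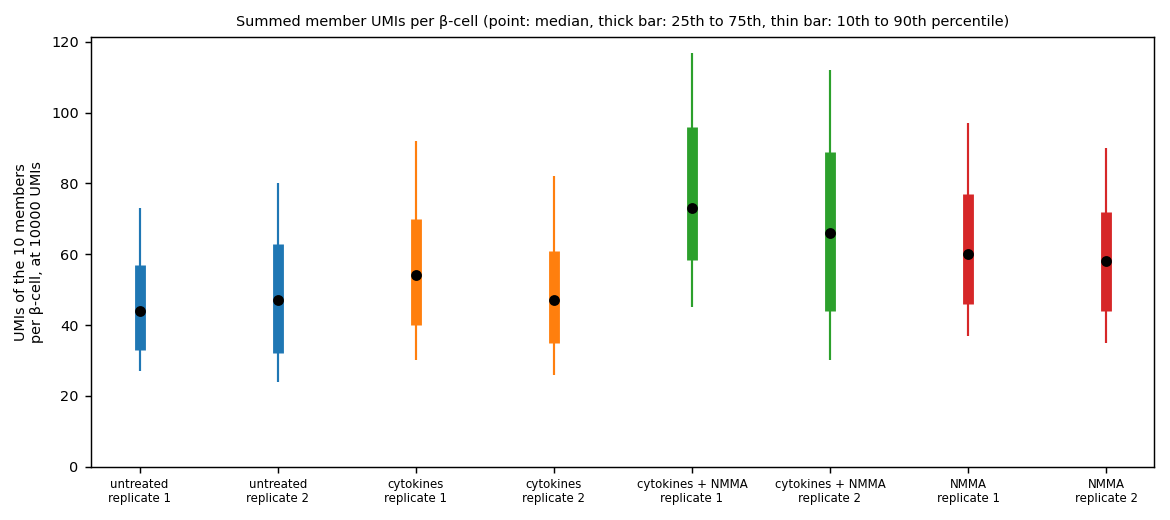
Summed UMIs of the 10 genes per β-cell, thinned to 10000 UMIs per cell with insulin included, by library. Points are medians, thick bars the 25th to 75th percentiles and thin bars the 10th to 90th. The medians are highest with cytokines plus NMMA, at 73 and 66 UMIs.

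In α-cells cytokines alone raised genes for BiP, calreticulin, ERdj4 and *Xbp1*. Of the 10, 4 rose after cytokines (*Hspa5*, *Calr*, *Dnajb9* and *Xbp1*), where 13.8% of the 9495 genes tested rose, and none fell. *Dnajb9* had 115 and 110.4 CPM in the untreated libraries, 349 and 232 CPM with cytokines, 179 and 148 CPM with cytokines plus NMMA and 105 and 112 CPM with NMMA alone. The groups with and without cytokines did not overlap, and its changes were 1.36 ± 0.22, adjusted p = 0.00022, after cytokines and 0.82 ± 0.22, adjusted p = 0.019, against cytokines plus NMMA. It was the only one of the 10 that passed the latter comparison, where 6.37% of all genes were higher. *Calr* had 682 and 562 CPM in the untreated libraries, 1055 and 1314 CPM with cytokines, 1005 and 939 CPM with cytokines plus NMMA and 633 and 644 CPM with NMMA alone, and rose by 0.93 ± 0.21, adjusted p = 0.0032, after cytokines. *Hspa5*, at 636 and 557 CPM untreated and 875 and 1171 CPM with cytokines, rose by 0.78 ± 0.22, adjusted p = 0.015. *Xbp1* had 179 and 156 CPM in the untreated libraries, 391 and 221 CPM with cytokines, 373 and 316 CPM with cytokines plus NMMA and 160.5 and 154 CPM with NMMA alone. It rose after cytokines (0.86 ± 0.24, adjusted p = 0.014) and was the 1 gene that rose after cytokines plus NMMA (1.04 ± 0.24, adjusted p = 0.0072), where 5.66% of all genes rose. With the block, 4 rose in that comparison (*Hspa5*, *Calr*, *Dnajb9* and *Xbp1*), against 8.59% of all genes, and *Dnajc3* was lower with cytokines than with cytokines plus NMMA (-0.54, blocked adjusted p = 0.015), where 9.71% of all genes were lower.

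*Hsp90b1*, *Pdia4*, *Pdia6*, *Dnajc3*, *Sdf2l1* and *Herpud1* were not called after cytokines in α-cells, with changes from -0.52 ± 0.23 (*Pdia4*) to 0.49 ± 0.23 (*Herpud1*). *Ddit3* had 24.0 and 46.6 CPM in the untreated libraries, 319.9 and 222 CPM with cytokines, 33.5 and 35.8 CPM with cytokines plus NMMA and 26.2 and 31.2 CPM with NMMA alone. Only the cytokine libraries stood apart: *Ddit3* rose by 2.90 ± 0.28, adjusted p = 1.5e-06, after cytokines, changed by -0.057 ± 0.29, adjusted p = 0.96, after cytokines plus NMMA, and was higher by 2.96 ± 0.28, adjusted p = 9.0e-06, in cytokines against cytokines plus NMMA. NMMA alone gave 0 calls among the 10 genes, 0 with an unadjusted p under 0.05 and 0 by DESeq2, where 0% of all genes were called by edgeR. Insulin transcripts, which α-cells do not make, took 0.650% and 1.18% of UMIs in the untreated α-cell libraries, 2.50% and 4.29% with cytokines, 1.35% and 1.83% with cytokines plus NMMA, and 0.813% and 0.975% with NMMA. The α-cell class also carried *Ppy* and *Pyy*, of the PP-cell marker list, and *Sst*. Per 1000000 UMIs, *Ppy* stood at 19734.5 and 26665 untreated, 36223.3 and 28573.8 with cytokines, and 30684.5 and 41587.8 with cytokines plus NMMA. *Pyy* stood at 18517.7 and 23207.7, 14292.4 and 11942.3, and 14692 and 18954.4 in the same order. *Sst* stood at 177.8 and 41.1, 520.3 and 2252.6, and 570.5 and 1185. The part of insulin and of these transcripts in the α-cell changes was not tested. With total UMI scaling only *Dnajb9* was called higher after cytokines, *Pdia4* and *Dnajc3* were called lower, and the median over the 10 was -0.021. Against cytokines plus NMMA that scaling called 0 higher and 3 lower (*Pdia4*, *Pdia6* and *Dnajc3*), so the call of *Dnajb9* was lost (adjusted p = 0.19). The 4 calls after cytokines became 1 without the untreated library of replicate 2, and the single call against cytokines plus NMMA became 0 without the cytokine library of replicate 1 or either library of cytokines plus NMMA. In cytokines plus NMMA against untreated, the single call became 0 without the cytokines plus NMMA library of replicate 1 or the untreated library of replicate 2, and 2 without either cytokine library.

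In δ-cells several chaperone genes rose with cytokines plus NMMA. After cytokines plus NMMA, 4 of the 10 rose (*Hspa5*, *Pdia6*, *Calr* and *Sdf2l1*), where 6.21% of the 8314 genes tested rose. *Calr* had 618 and 783 CPM untreated and 1522 and 1304 CPM with cytokines plus NMMA, a rise of 1.02 ± 0.23, adjusted p = 0.0031. *Hspa5*, at 887 and 949 CPM and 1669.8 and 1560.5 CPM, rose by 0.82 ± 0.22, adjusted p = 0.015. Both groups were apart in each of these genes. *Pdia6* rose by 0.78 ± 0.22, adjusted p = 0.022, and *Sdf2l1* by 0.76 ± 0.22, adjusted p = 0.024. *Herpud1*, at 223 and 337 CPM untreated and 194 and 228 CPM with cytokines plus NMMA, had a change of -0.39 ± 0.23, adjusted p = 0.36. With the block 5 rose, where 9.51% of all genes rose, *Xbp1* being the addition (0.62, blocked adjusted p = 0.0045), and *Ddit3*, with 0.88 ± 0.30, adjusted p = 0.069, without it, had 0.90 and an adjusted p of 0.016. With all libraries kept whatever their cell number, 2 of the 10 were called higher in this comparison. The 4 calls became 0 without the untreated or the cytokines plus NMMA library of replicate 1, and 2 without either of those of replicate 2.

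The δ-cell values for cytokines alone came from 1 library of 12 cells, and its spread is assumed to be that of the other groups. In that library *Gcg*, the α-cell hormone, stood at 31514 per 1000000 UMIs and *Sst*, the δ-cell hormone, at 23839, so its cells as a group carried more glucagon than somatostatin transcripts. Untreated δ-cells had 299.7 and 628 for *Gcg* and 83742 and 79085 for *Sst*, and δ-cells with cytokines plus NMMA had 5407 and 13967 for *Gcg* and 34286 and 34672 for *Sst*. The part of α-cell transcripts in the δ-cell values of both cytokine conditions was not tested. Untreated δ-cells also carried transcripts of the PP-cell marker list, *Ppy* at 27079.5 and 81772.7 and *Pyy* at 63106.7 and 84711.1. In replicate 2 both stood above *Sst*. With cytokines plus NMMA, *Ppy* was at 18592.9 and 29610.5 and *Pyy* at 27581.5 and 31163.6. The part of these transcripts in the δ-cell comparisons was not tested. Against untreated, 2 of the 10 were lower (*Pdia6*, -1.06 ± 0.31, adjusted p = 0.031; *Herpud1*, -1.06 ± 0.33, adjusted p = 0.047), where 2.74% of all genes were lower, and 4 with the block (*Hsp90b1* and *Dnajc3* in addition), against 3.5%. DESeq2 and scaling by total UMIs each called 0, and so did the fits without the untreated library of replicate 2 or either NMMA library, while that without the untreated library of replicate 1 called 1. Against cytokines plus NMMA, 7 were lower (all but *Pdia4*, *Herpud1* and *Xbp1*), where 1.13% of all genes were lower, led by *Sdf2l1* (-1.91 ± 0.36, adjusted p = 0.0019) and *Pdia6* (-1.84 ± 0.31, adjusted p = 0.00073). The library left out, of 9 cells, did not resemble the one used: *Pdia6* stood there at 616 per 1000000 UMIs (78 UMIs) and *Calr* at 1098 per 1000000 UMIs (139 UMIs), while the library used had 186 and 624 CPM. The 7 became 3 without the cytokines plus NMMA library of replicate 1 and 4 without either NMMA library. With the library of 9 cells included, 2 were lower in cytokines against cytokines plus NMMA, and *Pdia6* had a change of -0.80, adjusted p = 0.41. *Ddit3* had 34.1 and 38.5 CPM untreated and 116 CPM with cytokines (28 UMIs), and rose by 1.69 ± 0.40, adjusted p = 0.007. In the library of 9 cells it stood at 284 per 1000000 UMIs (36 UMIs). Insulin took 0.837% and 0.533% of UMIs in untreated δ-cells and 3.75% in the cytokine library used, and its part in these values was not tested. NMMA alone gave 0 calls among the 10, 1 with an unadjusted p under 0.05 and 0 by DESeq2, where edgeR called 0% of all genes. An unadjusted p under 0.05 was found there in 292 of the 8314 genes.

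In macrophages and endothelial cells none of the 10 genes was called by edgeR or DESeq2 in any comparison. In macrophages 4.62%, 6.46%, 0.116% and 0% of the 5156 genes tested were called in cytokines against untreated, cytokines plus NMMA against untreated, cytokines against cytokines plus NMMA and NMMA against untreated, and 1, 0, 2 and 1 of the 10 genes had an unadjusted p under 0.05. Endothelial cells had 6.38%, 6.61%, 0% and 0% of 7503 genes called and 0, 2, 0 and 0 of the 10 with an unadjusted p under 0.05. Over all genes, such a p was found for 782, 911, 336 and 139 in macrophages. In endothelial cells these numbers were 1269, 1236, 365 and 149. Changes after cytokines lay between -1.72 and 0.55 in macrophages, with a median of 0.30, and between -0.52 and 0.63 in endothelial cells, with a median of 0.025. *Calr*, at 887 and 662 CPM in untreated macrophages and 1372 and 886 CPM with cytokines, had a change of 0.55 ± 0.28, adjusted p = 0.39. The lowest macrophage value was that of *Herpud1*, which had 11 and 11 UMIs untreated and 3 and 2 UMIs with cytokines, too few to set its level. *Xbp1* in endothelial cells, at 132 and 99.97 CPM untreated and 233 and 135 CPM with cytokines, had a change of 0.63 ± 0.31, adjusted p = 0.31. *Ddit3* did not pass the test in macrophages, with 0.27 ± 0.32, adjusted p = 0.77, after cytokines, and rose in endothelial cells after cytokines plus NMMA (1.37 ± 0.30, adjusted p = 0.0081). With at most 720800 UMIs per library in macrophages and 688183 in endothelial cells, differences of the size seen in β-cells may not have been detectable. Insulin took 0.190% to 4.88% of UMIs in macrophages, with the lower values in the cytokine-treated libraries, and its part was not tested.

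**Figure D4:**
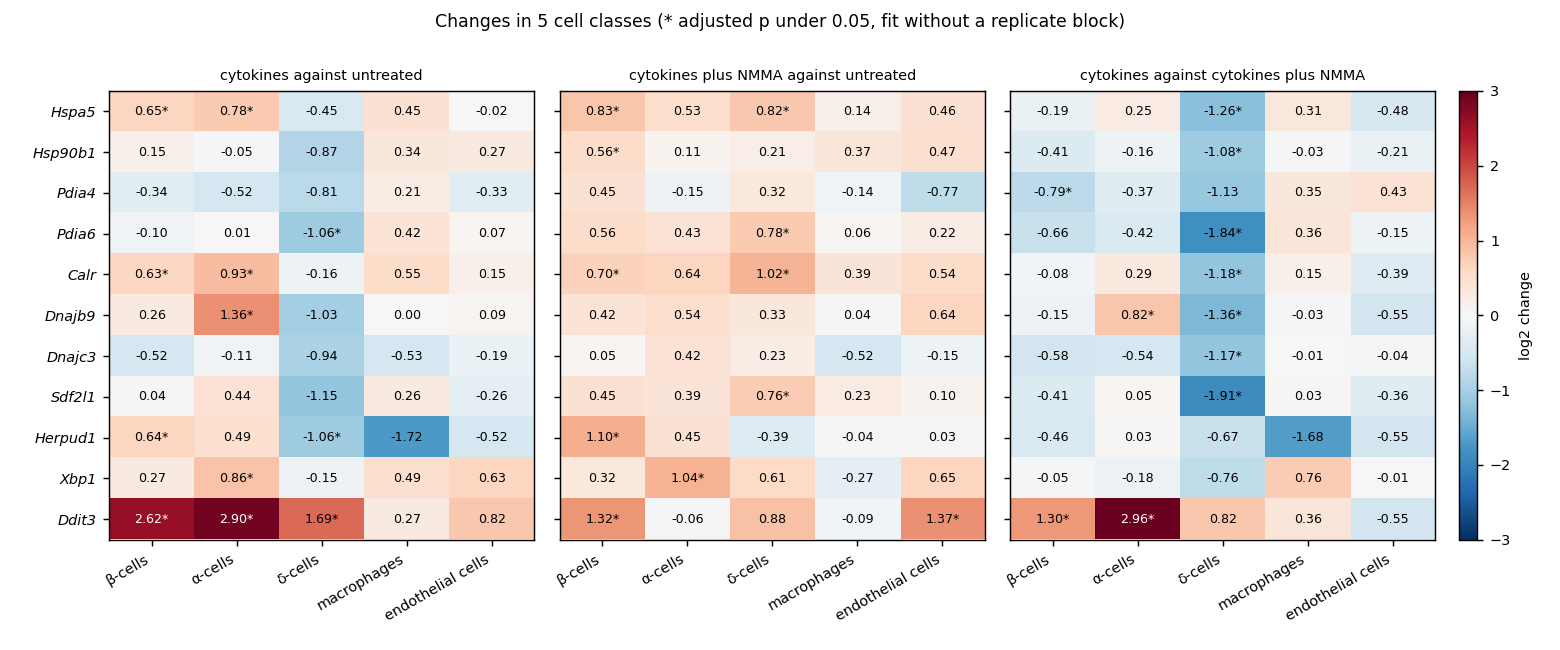
Log2 change of each gene (rows) in 5 cell classes (columns) in 3 comparisons; red is higher, blue lower, and an asterisk marks an adjusted p under 0.05 in the fit without a block. β-cells show pale rows for the chaperones beside a deep red *Ddit3* after cytokines, and the δ-cell column for cytokines rests on 1 library of 12 cells.

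Whether a class differed from β-cells was tested on the difference itself. Between α- and β-cells 1 of the 10 differed after cytokines, *Dnajb9*, whose change was larger in α-cells by 1.10 ± 0.20, adjusted p = 0.00013, where 4.67% of all genes differed. *Dnajb9* also differed in cytokines against cytokines plus NMMA (0.93 ± 0.20, adjusted p = 0.0018), where 2.95% of all genes did. *Ddit3* differed in that comparison by 1.64 ± 0.22, adjusted p = 1.7e-07, its level falling further with NMMA in α-cells, and its rise after cytokines did not differ detectably (0.33 ± 0.22, adjusted p = 0.47). Between δ- and β-cells 4 of the 10 differed after cytokines, all lower in δ-cells (*Hspa5*, *Hsp90b1*, *Dnajb9* and *Herpud1*, from -1.52 to -0.96), against 2.39% of all genes, and 3 in cytokines against cytokines plus NMMA (*Hspa5*, *Pdia6* and *Calr*), against 1.79%. These rest on the library of 12 cells in which *Gcg* exceeded *Sst*, and the 4 became 1 without the untreated library of replicate 1 or either library of cytokines plus NMMA, the 3 became 0 without either library of cytokines plus NMMA and 5 without either NMMA library. For macrophages 1 differed after cytokines, *Herpud1* (-2.17 ± 0.65, adjusted p = 0.026), against 4.33% of all genes, with 3 and 2 *Herpud1* UMIs in the cytokine libraries, and 1 in cytokines against cytokines plus NMMA, *Pdia6* (1.04 ± 0.27, adjusted p = 0.021), against 0.866%. For endothelial cells 1 differed after cytokines, *Herpud1* (-1.01 ± 0.31, adjusted p = 0.024), against 6.31% of all genes, and 0 in cytokines against cytokines plus NMMA, against 1.52%. Each of the 3 single calls for macrophages and endothelial cells became 0 when a library was left out: the untreated library of replicate 1 or either cytokine library for *Herpud1* in macrophages, any untreated or cytokine library for *Herpud1* in endothelial cells, and any library but those of NMMA alone for *Pdia6*. The count of 0 for endothelial cells became 1 without the cytokines plus NMMA library of replicate 1. For α-cells the single differences became 2 in cytokines against untreated without any 1 library other than an untreated one, and 2 in cytokines against cytokines plus NMMA without the cytokine library of replicate 1. The change of *Ddit3* after cytokines was smaller than in β-cells in both macrophages (-2.10 ± 0.35, adjusted p = 3.2e-07) and endothelial cells (-1.65 ± 0.37, adjusted p = 0.00046).

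The wider pathway was described in β-cells through 5 lists, and that of PERK-ATF4-CHOP targets includes *Ddit3* itself. Of 11 sensors and transducers, 7 rose and 2 fell after cytokines (median 0.41), where 23.8% of all genes rose and 22.4% fell with a median of 0.0015. *Ppp1r15a*, the phosphatase subunit that restores translation after PERK, had 18.1 and 20.1 CPM untreated, 89.4 and 75.6 CPM with cytokines and 50.4 and 44.1 CPM with cytokines plus NMMA, and rose by 2.11 ± 0.14, adjusted p = 1.3e-05. *Creb3*, a membrane-bound transcription factor, rose by 2.05 ± 0.23, adjusted p = 0.00019, and *Eif2ak3*, which encodes PERK, by 1.46 ± 0.16, adjusted p = 0.00014. *Creb3l2*, a related membrane-bound factor, fell (-1.54 ± 0.12, adjusted p = 2.6e-05), as did *Mbtps1*, the protease that first cuts ATF6 (-0.52 ± 0.12, adjusted p = 0.0072). Of 18 PERK-ATF4-CHOP targets, 14 rose and 1 fell (median 1.31). *Atf3*, a stress-induced transcription factor, rose by 3.74 ± 0.45, adjusted p = 0.00064, and *Nupr1*, a stress-induced chromatin-associated protein, by 2.88 ± 0.25, adjusted p = 4.9e-05. *Nupr1* had 119.6 and 186 CPM untreated, 1077 and 1171 CPM with cytokines and 668 and 457 CPM with cytokines plus NMMA. *Vldlr*, a lipoprotein receptor, was the gene of this list that fell (-0.77 ± 0.17, adjusted p = 0.0054). After cytokines plus NMMA 14 of the 18 rose and 0 fell (median 1.03), against 12.9% and 9.7% of all genes. In cytokines against cytokines plus NMMA 2 were higher and 1 lower (median 0.25), against 9.01% and 10.4%. With the block 3 were higher and 4 lower there, against 20.3% and 20.3%. For the 11 sensors and transducers these counts were 5 and 2, 2 and 1, and 4 and 3.

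Of 26 other ER chaperones and folding enzymes, 0 rose and 7 fell after cytokines (median -0.13), with 2 having an unadjusted p under 0.05 and a higher level and DESeq2 calling 0 higher, and with the block 7 rose and 11 fell. All genes had 23.8% higher and 22.4% lower, and 32.2% and 30.6% with the block, so the share that fell was near that of all genes. *Pdia5*, a further disulfide isomerase, fell by 1.43 ± 0.22, adjusted p = 0.00084. *Ppib*, cyclophilin B, a prolyl isomerase of the ER, had 203 and 165 CPM untreated, 93.2 and 71.1 CPM with cytokines and 298 and 230.4 CPM with cytokines plus NMMA. It fell after cytokines (-1.16 ± 0.22, adjusted p = 0.003), and with NMMA present its level was above untreated in both replicates. *Ero1lb*, the pancreatic oxidase that recharges disulfide isomerases, had 411 and 384 CPM untreated, 186 and 173 CPM with cytokines and 170.3 and 191 CPM with cytokines plus NMMA, and its levels were low in both cytokine conditions (-1.15 ± 0.14, adjusted p = 0.00022, for cytokines against untreated). After cytokines plus NMMA 3 of the 26 rose and 2 fell, against 12.9% and 9.7% of all genes. In cytokines against cytokines plus NMMA 0 were higher and 7 lower (median -0.23), against 9.01% and 10.4% of all genes.

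Of 20 genes of ER-associated degradation 5 rose and 2 fell after cytokines (median 0.0088). The rises were near the 23.8% of all genes, and the falls stood against 22.4%. After cytokines plus NMMA 3 of the 20 rose and 0 fell, against 12.9% and 9.7% of all genes. *Derl1*, which encodes a channel component for retrotranslocation, rose by 1.07 ± 0.15, adjusted p = 0.00063, *Ufd1*, a cofactor of the extracting ATPase, by 0.997 ± 0.12, adjusted p = 0.00027, and *Ubxn4*, which tethers that ATPase to the ER, by 0.59 ± 0.16, adjusted p = 0.014. *Edem2*, a mannosidase that marks misfolded glycoproteins, fell (-1.17 ± 0.33, adjusted p = 0.023), and so did *Vcp*, the ATPase itself (-0.60 ± 0.15, adjusted p = 0.009). Of 23 genes of the translocon and signal peptide handling 3 rose and 5 fell (median -0.019), against the same shares of all genes. *Ssr3*, of the translocon-associated complex, rose by 0.61 ± 0.13, adjusted p = 0.0048, *Sec11c*, of the signal peptidase, by 0.58 ± 0.16, adjusted p = 0.016, and *Sec61g*, of the channel, by 0.56 ± 0.19, adjusted p = 0.033. *Spcs3*, of the signal peptidase, *Sec61a1*, of the channel, and *Rpn1*, of the oligosaccharyltransferase, fell by 1.11, 0.58 and 0.51. In cytokines against cytokines plus NMMA, 0 of these 23 were higher and 7 lower (median -0.20), against 9.01% and 10.4% of all genes. NMMA alone gave 0 calls in all 5 lists, where 0% of all genes were called, and DESeq2 called 0 in each list. In the order given here, 3, 9, 3, 3 and 0 genes had an unadjusted p under 0.05, against 932 of the 12773 genes tested. With the block edgeR called 2, 7, 5, 3 and 1, all higher except 1 of the other ER chaperones. Of all genes, 1.5% were called higher with the block.

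**Figure D5:**
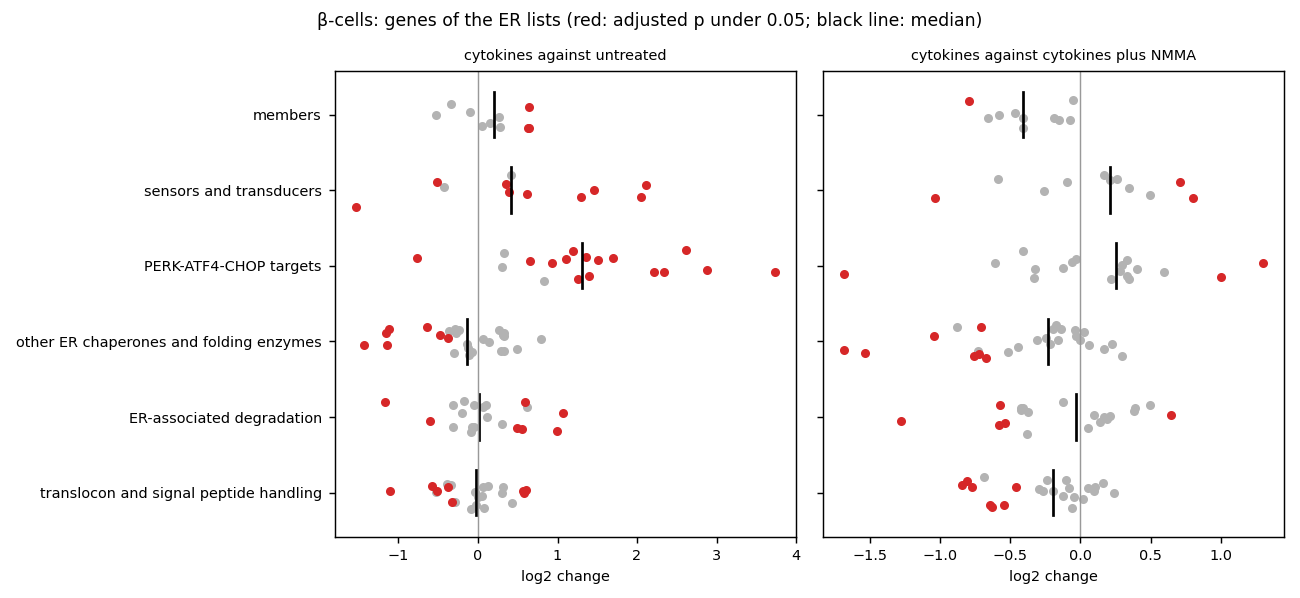
Log2 changes in β-cells of the 10 genes (members, top row) and of the 5 ER lists, 1 point per gene, in cytokines against untreated (left) and cytokines against cytokines plus NMMA (right). Red points have an adjusted p under 0.05 and black lines are list medians. The PERK-ATF4-CHOP targets, *Ddit3* among them, have a median of 1.31 after cytokines, and the other ER chaperones one of -0.13.

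The genes whose β-cell profile was most like the mean of the 10 over the 8 libraries were *Surf4* (Pearson r = 0.985), *Creld2* (0.982), *Chac1* (0.974), *Gm7324* (0.973) and *Tor1b* (0.967). *Surf4*, a cargo receptor for export from the ER, had 178 and 175 CPM untreated, 194 and 178 CPM with cytokines and 222 and 206 CPM with cytokines plus NMMA. *Creld2*, an ER protein with disulfide isomerase features, had 98.7 and 80.6 CPM untreated, 135 and 89.9 CPM with cytokines and 219.6 and 154 CPM with cytokines plus NMMA. *Chac1*, which encodes an enzyme that degrades glutathione and stands among the PERK-ATF4-CHOP targets, had 16.1 and 16.3 CPM untreated, 24.4 and 15.9 CPM with cytokines and 37.5 and 23.9 CPM with cytokines plus NMMA, so that both replicates were highest with cytokines plus NMMA. *Gm7324* was counted at 0.278 to 1.23 CPM, too low to weigh. Among the 10 themselves, the r of a gene to the mean of the other 9 lay between 0.40 (*Dnajc3*) and 0.93 (*Dnajb9*).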

How the data were processed

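Mouse islet cells of 8 droplet libraries (4 conditions, 2 experimental replicates) were measured by single-cell RNA-sequencing. The deposited files are gene-by-barcode matrices of raw UMI counts, which the authors made with CellRanger, version 3.0.0 in replicate 1 and 6.0.0 in replicate 2 per the file headers, and the genome build mm10 is given in the submitters' processing notes. The gene lists differed (31053 and 32285 genes), so the 30406 shared gene IDs were used. The labels name version 2 of the 3′ kit and the study's methods version 3. Counts cover the 3′ end of each mRNA, do not separate spliced from unspliced *Xbp1*, and carry free RNA from lysed cells.

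The study's own cell filter was applied: from 200 genes up to 5500 in replicate 1 and 6500 in replicate 2, and a mitochondrial share up to 10%. Cells were clustered with scanpy 1.11.5 (2000 variable genes, 30 principal components, Leiden resolution 1, and 3 for cells other than β-cells) and named from marker lists. The settings that separate endocrine classes were set after hormone levels were seen. A doublet score marked 200 cells (1.84%), which were kept in the main values and removed in an alternative. Raw UMIs were added up over the cells of each class in each library, provided it held at least 10 of them, and these sums entered edgeR 4.0.16 (R 4.3.3; filterByExpr, TMM, glmQLFit and glmQLFTest, robust), with Benjamini-Hochberg adjustment over all genes of a class, and DESeq2 1.42.0 as an alternative. Differences between classes were tested as interactions with each library as a block. Libraries with the same replicate number shared a pool of islets, so they are paired by design. The deviations of same-numbered β-cell libraries correlated (r 0.656 to 0.750, median 0.718, over 6 pairs of conditions). Replicates also differed in CellRanger version and gene list, so that correlation cannot tell the pool from the processing. In the fit without a block, p-values measure the spread between the libraries of these 2 pools. With the replicate or the library as a block, they measure what remains after that block is taken out. None measures spread beyond these 2 pools. No replicate pair agreed within sampling noise. The statistics were tested on simulated data. Binomial intervals and counting floors were not needed for the values given.

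Named were the 10 genes and *Ddit3*, the 3 called genes of each list with the largest rise and fall in β-cells after cytokines, and the 5 other genes most correlated with the members. The genes and lists were chosen with earlier results of these data known. Promoter windows are RefSeq's, matched for all 10 genes and *Ddit3*. Tried were other scalings, a replicate block, DESeq2, no low-count filter, no cell minimum, doublet removal, leaving out each library, and, chosen after seeing the data, β-cells without the 2 clusters (836 cells) led by heat shock genes.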

Additional observations from a re-analysis of the deposited data

Results flagged for a closer look

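Several genes responded differently in another class than in β-cells, by the interaction test in which the other class minus β-cells is the log2 difference. In α-cells *Dnajb9* differed by 1.10 after cytokines and by 0.93 in cytokines against cytokines plus NMMA, and *Ddit3* by 1.64 in the latter. In δ-cells after cytokines *Hspa5* differed by -0.96, *Hsp90b1* by -0.99, *Dnajb9* by -1.20 and *Herpud1* by -1.52. In cytokines against cytokines plus NMMA, δ-cells differed in *Hspa5* by -1.01, in *Pdia6* by -1.05 and in *Calr* by -1.04. All of these δ-cell values rest on 1 cytokine library of 12 cells in which *Gcg* exceeded *Sst*. In macrophages *Herpud1* differed by -2.17 and *Ddit3* by -2.10 after cytokines, the former from 3 and 2 UMIs in the cytokine libraries, and *Pdia6* by 1.04 in cytokines against cytokines plus NMMA. In endothelial cells *Herpud1* differed by -1.01 and *Ddit3* by -1.65 after cytokines, and *Ddit3* by -1.80 in cytokines against cytokines plus NMMA. After cytokines plus NMMA, *Herpud1* had values of opposite sign, -0.39 ± 0.23, adjusted p = 0.36, in δ-cells (edgeR, not past the test; lower in both replicates) and 1.10 in β-cells, higher in both. That difference was not tested.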

How the results depend on the processing

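The fit with the replicate as a block moved the number of the 10 genes called by over 1.5 times in β-cells from 3 to 7 (cytokines against untreated), 4 to 9 (cytokines plus NMMA against untreated), 1 to 6 (cytokines against cytokines plus NMMA) and 0 to 5 (NMMA), in α-cells from 1 to 4 and 1 to 2 in the comparisons of cytokines plus NMMA with untreated and with cytokines, and in δ-cells from 2 to 4 in cytokines against untreated (and by less, from 4 to 5, in cytokines plus NMMA against untreated). In cytokines against cytokines plus NMMA the β-cell count of 1 became 4 with DESeq2, 5 with total UMI scaling and 3 with no low-count filter, and the α-cell count became 3 with total UMI scaling. In α-cells, cytokines plus NMMA against untreated gave 2 with no low-count filter. The 2 δ-cell calls in cytokines against untreated became 0 with DESeq2, 0 with total UMI scaling and 1 with RLE scaling. The 7 δ-cell calls against cytokines plus NMMA became 2 with DESeq2 and 2 with no cell minimum, and the 4 calls in cytokines plus NMMA against untreated became 2 with no cell minimum. Genes that differed from β-cells after cytokines became 2 for α-cells and 2 for δ-cells with no low-count filter, and 1 for δ-cells with total UMI scaling; in cytokines against cytokines plus NMMA they became 2 (total UMI scaling) and 0 (no low-count filter) for macrophages and 1 (total UMI scaling) for endothelial cells. The cause of these shifts was not tested. Total UMI scaling moved the median over all β-cell genes by -0.22 in both cytokines against untreated and cytokines against cytokines plus NMMA, and the split of calls from 3035 higher and 2855 lower to 1975 and 3951 in the first, and from 1151 and 1326 to 401 and 2359 in the second. Leaving out 1 library at a time gave 0 to 3, 1 to 4, 0 to 1 and 0 calls in β-cells for the comparisons in the order above, 1 to 4, 0 to 2, 0 to 1 and 0 in α-cells, 0 to 2, 0 to 4, 3 to 7 and 0 in δ-cells, and 0 in macrophages and endothelial cells. Genes that differed from β-cells then numbered 1 to 2 and 1 to 2 (α-cells), 1 to 4 and 0 to 5 (δ-cells), 0 to 1 and 0 to 1 (macrophages) and 0 to 1 and 0 to 1 (endothelial cells). The median change of the ratio to *Ddit3* ranged from -3.22 to -1.84. Of the called changes of the 10 genes, 0 changed sign with the block, DESeq2, total UMI scaling or no cell minimum, whereas uncalled ones did. Total UMI scaling turned 2 β-cell, 6 α-cell, 1 δ-cell, 3 macrophage and 6 endothelial values, the block turned 3 macrophage and 4 endothelial values, DESeq2 turned 1 macrophage value, and dropping the cell minimum turned 1 δ-cell value. Without the β-cell clusters led by heat shock genes, an alternative chosen after seeing the data, the β-cell counts were 3, 5, 1 and 0. Each test rests on 2 pools, and whether depth limited the calls in classes with fewer UMIs was not tested.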
